A study of Mus musculus with 4 samples.

Results

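Interferon-stimulated genes are the genes that cells switch on when interferons reach them, and 37 of them were examined here in mouse aortas with and without Smad4 in smooth muscle. The members were the probe sets of an Affymetrix mouse array named for exactly 1 of the 37 symbols. This gave 61 probe sets of 35 genes, out of 18193 genes with such a probe set on the array. Isg15 and Ifi44 had no probe set named for them alone and have no value. The groups were wild-type littermates (WT) and mice with a knockout of Smad4 specific to smooth muscle cells (Smad4-KO), both with aortas taken at 6 weeks of age. Smad4 is the partner that receptor-activated Smads share in TGF-beta and BMP signalling. There were 2 arrays per genotype (replicates 1 and 2), each with 400 ng of total RNA from a pool of 3 to 5 vessels. The labels name the arrays of a genotype as biological replicates. The sources used here do not give strain, sex or the Cre driver.

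The values are probe set signals on a linear scale, with array medians of 111 to 137. Smad4 itself read 4394 and 3819 in WT against 2676 and 3579.6 in Smad4-KO by its brightest probe set, a gap that did not pass the test (adjusted p = 0.626 in limma), and cells other than smooth muscle keep an intact gene. The 8 smooth muscle markers summed to signals of 130309 and 159530 in WT against 59671 and 67899.5 in Smad4-KO, so the labelled tissue was recognisable in both groups. Macrophage and white blood cell markers moved with the genotype: 12 of 16 were called higher, and their summed signal was 18842 and 12272 in WT against 76688 and 105297 in Smad4-KO, with none at 0. All 7 neuron markers were called higher (median log2 difference 4.92), and their summed signal was 1165 and 1053 in WT against 31609 and 23044 in Smad4-KO. Of the 8 smooth muscle markers, 4 were called lower, and all 8 had both Smad4-KO arrays below both WT arrays (median -2.38). Over all genes tested, 4.92% were called higher and 1.39% lower, and 21.4% had both Smad4-KO arrays below both WT arrays. In whole aorta, more cells of a type and more RNA per cell cannot be told apart, and the part of these marker shifts in the results that follow was not tested.

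Type I interferons bind a receptor made of Ifnar1 and Ifnar2, and the Janus kinases attached to it activate transcription factors that include Stat2. With Irf9 these bind a DNA element, the interferon-stimulated response element (ISRE), in front of the target genes. Interferon gamma acts through its own receptor and a different element, the GAS. The products of the target genes sense or cut viral RNA, block translation, trap virus particles or adjust the signal itself. Vascular smooth muscle, endothelium and macrophages are all known to answer interferons.

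All 35 genes had a higher mean signal in Smad4-KO than in WT, with log2 differences from 0.56 to 4.22 and a median of 2.22, or 4.66-fold. The median over all 13645 genes tested was -0.01. The difference was at least 1 log2 unit for 32 genes, against 13.4% of all genes, and at least 2 for 24, against 6.08%. At an adjusted p of 0.05 in limma (Benjamini-Hochberg over all genes tested), 14 of the 35 rose and 0 fell, where 4.92% of all genes tested rose and 1.39% fell. At an unadjusted p under 0.05, 31 were higher, against 13.1% of all genes. Both Smad4-KO arrays lay above both WT arrays for 32 of the 35, and for 25.9% of all genes tested. An exact permutation test of 2 against 2 arrays cannot go below p = 0.333, so it was not used. All 35 passed the filter on low signal, although Oas3 and Dhx58 would not have passed on their WT arrays alone. Of these, Dhx58 is among the 14. The count of 14 rests on few arrays: it was 1 without WT replicate 1 (background 1.85%), 0 without WT replicate 2 (0% of all genes, 27 of the 35 at an unadjusted p under 0.05), 24 without Smad4-KO replicate 1 (4.27%) and 9 without Smad4-KO replicate 2 (4.63%). With no filter on low signal it was 0 as well (0% of all genes), though 29 of the 35 had an unadjusted p under 0.05. Blocking arrays that match on labelling controls left 0 (0%, with 34 at an unadjusted p under 0.05), and averaging probe sets within genes left 7 (3.13%). The replicate number as a block gave 27 (7.59%).

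**Figure D1:**
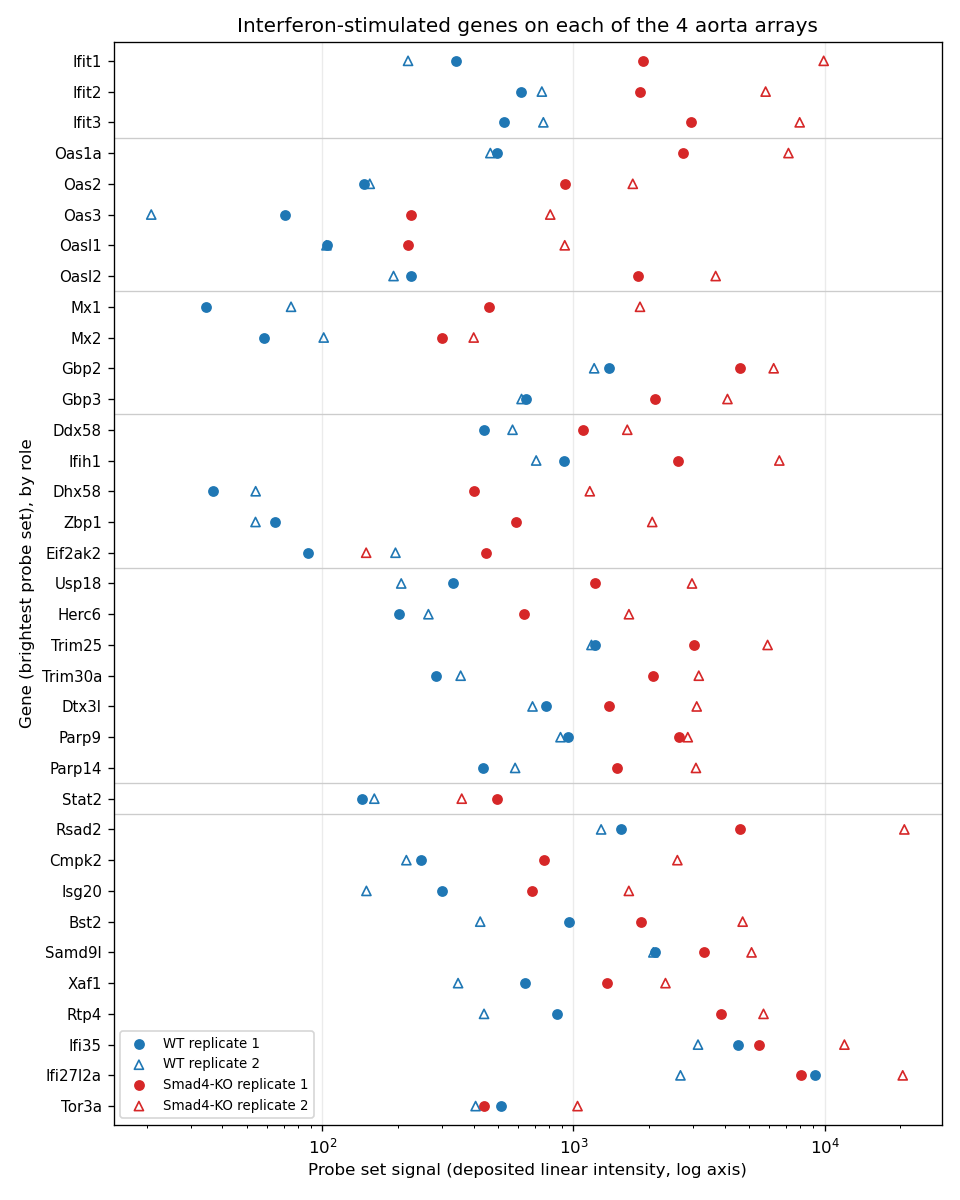
Signal of the 35 interferon-stimulated genes on each array, on a log axis, with WT in blue, Smad4-KO in red, replicate 1 as filled circles and replicate 2 as open triangles. Both red symbols lie right of both blue symbols in 32 of 35 rows, and the red triangle lies right of the red circle in 33.

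The ISRE was looked for in RefSeq promoter windows (build GRCm38.p6), which run from 250 bases before to 50 bases after a transcription start. Of the 37 listed genes, 26 matched a window by symbol. Oas2, Mx1, Mx2, Dhx58, Zbp1, Usp18, Parp9, Parp14, Rtp4, Ifi27l2a and Tor3a did not. The core, GAAA then any 2 bases then GAAA, read on both strands, was present in 14 of the 26 genes (53.8%), against 1079 of the 27025 genes in the table (3.99%). In Ddx58, Eif2ak2 and Ifih1 the only core began after the start, by 2, 18 and 32 bases in that order. The longer form, the core followed by C, was present in 12 of the 26 (46.2%), against 0.944% of all genes. The GAS letters TTCNNNGAA, which read the same on both strands, were present in 6 of the 26 (23.1%) and in 9.55% of all genes. A match describes the letters and is not a shown binding site.

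The 250 bases before the start are printed for 6 members, to set genes with a core at different positions beside one without a core. Capitals mark the ISRE core, which on the opposite strand reads TTTC, any 2 bases, TTTC. Ifit1 (chr19:34640639-34640888, plus strand) has 2 copies, which begin 104 and 85 bases before the start. Ifit3 (chr19:34583279-34583528, plus strand) has 2, at 156 and 122 bases. Oas1a (chr5:120907526-120907775, minus strand) has 2 that overlap, at 20 and 14 bases. Rsad2 (chr12:26456453-26456702, minus strand) has 1 at 120 bases, and Gbp2 (chr3:142620413-142620662, plus strand) has 1 at 59 bases. Oasl2 (chr5:114896684-114896933, plus strand) has none in this window.
Ifit1: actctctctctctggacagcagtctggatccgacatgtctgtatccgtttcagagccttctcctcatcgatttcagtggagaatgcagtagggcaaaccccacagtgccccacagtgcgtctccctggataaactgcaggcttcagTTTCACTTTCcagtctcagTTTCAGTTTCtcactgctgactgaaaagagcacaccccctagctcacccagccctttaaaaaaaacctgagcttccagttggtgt
Ifit3: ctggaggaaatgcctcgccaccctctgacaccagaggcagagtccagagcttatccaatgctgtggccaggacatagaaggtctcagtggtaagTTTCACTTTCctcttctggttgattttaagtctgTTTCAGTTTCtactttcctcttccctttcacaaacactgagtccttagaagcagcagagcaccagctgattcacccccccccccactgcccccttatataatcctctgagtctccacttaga
Oas1a: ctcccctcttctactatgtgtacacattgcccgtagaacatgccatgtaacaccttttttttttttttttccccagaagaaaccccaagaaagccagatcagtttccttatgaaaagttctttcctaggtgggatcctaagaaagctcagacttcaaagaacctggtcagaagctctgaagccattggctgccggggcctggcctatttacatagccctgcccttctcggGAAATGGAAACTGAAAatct
Rsad2: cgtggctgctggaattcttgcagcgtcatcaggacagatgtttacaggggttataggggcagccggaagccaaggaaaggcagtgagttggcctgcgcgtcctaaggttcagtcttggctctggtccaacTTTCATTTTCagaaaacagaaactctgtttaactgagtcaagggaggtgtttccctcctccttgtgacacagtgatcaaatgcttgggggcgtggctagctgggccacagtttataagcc
Gbp2: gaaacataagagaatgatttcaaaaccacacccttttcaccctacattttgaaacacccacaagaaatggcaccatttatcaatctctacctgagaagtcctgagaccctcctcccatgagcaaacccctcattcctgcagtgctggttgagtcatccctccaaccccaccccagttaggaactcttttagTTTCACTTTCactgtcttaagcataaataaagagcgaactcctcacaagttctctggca
Oasl2: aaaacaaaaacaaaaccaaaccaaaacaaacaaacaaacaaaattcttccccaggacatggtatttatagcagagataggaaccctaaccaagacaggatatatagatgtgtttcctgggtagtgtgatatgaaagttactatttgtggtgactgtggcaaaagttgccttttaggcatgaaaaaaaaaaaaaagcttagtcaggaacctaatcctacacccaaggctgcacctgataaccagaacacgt

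Members with and without the core overlapped in the size of their differences. The 13 tested genes with a core had a median log2 difference of 2.36 (range 0.98 to 3.98, 5 called) and the 11 without one a median of 2.11 (range 0.98 to 3.63, 1 called). Over all genes tested, 4.92% were called higher. The called members Oas2, Mx1, Mx2, Dhx58, Zbp1, Usp18, Parp9 and Rtp4 have no window and are in neither group. The medians and counts of the 2 groups are a description with no test. Oasl2, with no core in its window, and Oas1a, with 2, both passed the test, as given with their family in the results by role.

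The IFIT proteins bind viral RNA that lacks the host's cap methylation and block its translation. Ifit1 read 341 and 219 in WT against 1883 and 9919.6 in Smad4-KO. Both Smad4-KO pools were far above both WT pools, yet they also differed from each other by 5.27-fold, and the log2 difference of 3.98 ± 0.80 (standard error from limma, 2 against 2 arrays, as after each ± here) just missed the threshold (adjusted p = 0.0516). Ifit3 read 530.1 and 759 in WT against 2930.2 and 7959.5 in Smad4-KO. It rose 7.62-fold (2.93 ± 0.55, adjusted p = 0.0418), with no overlap between genotypes. Ifit2 read 621 and 748 against 1836.5 and 5824, and its difference of 2.26 ± 0.59 missed the threshold (adjusted p = 0.0975). Ifit2 and Ifit3 are direct neighbours among the protein-coding genes of chromosome 19.

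The oligoadenylate synthetases make a short messenger that activates RNase L, which then cuts RNA. Oas1a read 498 and 466 in WT against 2741 and 7181 in Smad4-KO. The WT pools agreed closely and the gene rose 9.21-fold (3.20 ± 0.51, adjusted p = 0.0291). Oas2 read 146 and 154 against 927 and 1722, and rose 8.42-fold (3.07 ± 0.40, adjusted p = 0.0191). Oasl2, a family member with ubiquitin-like domains, read 225 and 192 against 1810.4 and 3684. Its rise of 12.4-fold (3.63 ± 0.43, adjusted p = 0.0167) was the largest in the family among genes that passed. Oas3 read 71.2 and 20.8 in WT against 225 and 808 in Smad4-KO, and its difference of 3.47 ± 0.83 missed the threshold (adjusted p = 0.0786). Its WT signals lie where replicate noise is high, and with signals under 64 raised to 64 it was at least 6.32-fold higher. That bound is on the measured ratio alone. Oasl1 stayed close in WT (104.3 and 103.8) but read 220 and 923 in Smad4-KO, so its difference of 2.11 ± 0.69 did not pass (adjusted p = 0.171).

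Among the interferon-induced GTPases, all 4 members rose, where 4.92% of all genes tested did. Mx1, which blocks the polymerase of influenza and related viruses, read 34.3 and 75.0 in WT against 460 and 1840.3 in Smad4-KO (4.18 ± 0.75, adjusted p = 0.0385). With signals under 64 raised to 64 it was at least 13.3-fold higher. Mx2 read 58.4 and 101 against 300.1 and 400.4 and rose 4.51-fold (2.17 ± 0.40, adjusted p = 0.0395). The guanylate-binding proteins coat and break open vacuoles that hold pathogens, and they answer interferon gamma strongly. Gbp2 read 1385 and 1209 in WT against 4605 and 6271 in Smad4-KO, a rise of 4.15-fold (2.05 ± 0.32, adjusted p = 0.0282). Gbp3 read 644 and 621 against 2116 and 4105 and rose 4.66-fold (2.22 ± 0.41, adjusted p = 0.0406). Both Smad4-KO arrays lay above both WT arrays for all 4, and for 25.9% of all genes tested. The Smad4-KO pools of Gbp2 and Mx2 lay close together.

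Sensors of foreign nucleic acid formed the next group. Zbp1, which detects left-handed double-stranded nucleic acid and can start necroptosis, showed the largest log2 difference of all 35 members. It read 64.6 and 54.1 in WT against 589 and 2059 in Smad4-KO (4.22 ± 0.62, adjusted p = 0.0241), at least 17.1-fold higher with signals under 64 raised to 64. A second Zbp1 probe set read 101 and 42.0 against 548 and 1386, so both probe sets separated the genotypes. Dhx58, the LGP2 regulator of RNA sensing, read 36.7 and 54.2 against 402 and 1162 by its brightest probe set (3.94 ± 0.57, adjusted p = 0.0231, at least 10.7-fold). It passed the filter on low signal only through its Smad4-KO arrays, so it was tested because it is high there. The other probe sets of Dhx58 did not share the higher Smad4-KO signal. The brighter of them read 82.5 and 76.3 in WT against 49.6 and 58.2 in Smad4-KO, and the dimmest stayed under 29. The RNA sensor Ifih1 (MDA5) read 919 and 710.3 against 2598 and 6605, and its difference of 2.36 ± 0.51 did not pass (adjusted p = 0.0621). Ddx58, which encodes RIG-I, read 439 and 572 against 1087 and 1638 (1.41 ± 0.36, adjusted p = 0.0924). Both sensors had no overlap between genotypes, and the 3 probe sets of Ddx58 gave log2 differences of 0.95 to 1.59. Eif2ak2, the kinase PKR that stops translation on double-stranded RNA, had 3 probe sets with similar genotype differences (0.98 to 1.13) that disagreed on which Smad4-KO pool was higher. The brightest read 87.6 and 195 in WT against 448 and 149 in Smad4-KO, while another read 92.0 and 162 against 146 and 412. The genotypes overlapped on both, and the last, at 121 and 108 against 202 and 308, kept them apart. The difference of Eif2ak2 by its brightest probe set was 0.98 ± 0.66 and did not pass (adjusted p = 0.542).

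Enzymes of ubiquitin, of the ubiquitin-like protein Isg15 and of ADP-ribose all had higher means in Smad4-KO. Of the 7 tested, 3 rose, where 4.92% of all genes did. Usp18 removes Isg15 from proteins and dampens the type I receptor, which makes it a brake among the members. It read 333 and 206 in WT against 1222 and 2965 in Smad4-KO, a rise of 7.27-fold (2.86 ± 0.53, adjusted p = 0.0406). Trim30a, a restrainer of Toll-like receptor signalling, read 284 and 355 against 2082 and 3156. With 8.07-fold (3.01 ± 0.35), it had the lowest adjusted p of the 35 members (0.0166). Parp9, an ADP-ribosyltransferase family member, read 954 and 888 against 2626 and 2853, and rose 2.97-fold (1.57 ± 0.29, adjusted p = 0.0418). Its pools agreed within each genotype, so a modest rise passed. Dtx3l, the ubiquitin ligase that works in a complex with Parp9, read 779 and 687 against 1383 and 3096 and its 2.83-fold gap did not pass (adjusted p = 0.146). Parp14, the third gene of that run of neighbours on chromosome 16, read 435 and 586 against 1487 and 3074 (2.08 ± 0.45, adjusted p = 0.0608). Herc6, the mouse ligase that attaches Isg15, had a difference of 2.15 ± 0.52 (adjusted p = 0.0832), and Trim25, the ligase that activates RIG-I, one of 1.82 ± 0.41 (adjusted p = 0.0712). Neither passed, though both separated the genotypes. The Trim25 probe set is of the type that can match several transcripts.

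Stat2, the only transcription factor in the set, read 144 and 161 in WT against 497 and 359 in Smad4-KO. The 2.77-fold gap (1.47 ± 0.33) did not pass (adjusted p = 0.0648), and a second probe set read 75.6 and 125 against 548 and 173. On both probe sets the genotypes were apart, and Smad4-KO replicate 1 was the higher pool.

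Of the other 10 effectors tested, only Rtp4 passed, where 4.92% of all genes were called higher. Rtp4, known as a chaperone of odorant receptors and as a restrainer of interferon responses, read 863 and 440.3 in WT against 3863 and 5713 in Smad4-KO, a rise of 7.62-fold (2.93 ± 0.45, adjusted p = 0.0261). Rsad2 (viperin) makes a chain-terminating nucleotide, and Cmpk2, its direct neighbour on chromosome 12, supplies nucleotide triphosphates. By its brightest probe set Rsad2 read 1542 and 1289 in WT against 4596 and 20787 in Smad4-KO, where the pools lay 4.52-fold apart (2.79 ± 0.72, adjusted p = 0.0974). Cmpk2 read 248 and 216 against 763 and 2593, with the pools 3.40-fold apart (2.60 ± 0.61, adjusted p = 0.0760). Neither neighbour passed, and in both the spread between the Smad4-KO pools was large beside the closeness of the WT pools. Isg20, an RNA exonuclease (2.33 ± 0.57, adjusted p = 0.0854), Bst2, the tether that holds budding virus (2.21 ± 0.61, adjusted p = 0.116), and Xaf1, an antagonist of XIAP (1.91 ± 0.46, adjusted p = 0.0796), had no overlap between genotypes and did not pass. Samd9l, which restrains translation and growth, read 2112 and 2080.3 against 3316 and 5119 (0.98 ± 0.35, adjusted p = 0.203). Ifi35 differed by 1.10 ± 0.48 (adjusted p = 0.297) by its brightest probe set, of the type that can match several transcripts. Its others gave log2 differences of 0.58 and 0.92. The one at 0.58 read 568 and 687 against 975 and 897, with Smad4-KO replicate 1 the higher pool. The remaining pair overlapped: Ifi27l2a read 9175 and 2667 in WT against 8057 and 20479 in Smad4-KO (adjusted p = 0.418), and Tor3a, an ATPase of the endoplasmic reticulum, read 517 and 408 against 442 and 1038 (adjusted p = 0.663). For Ifi27l2a the WT pools themselves lay far apart. For Tor3a the overlap holds for the brightest probe set alone. Its other probe sets read 243 and 246 against 502 and 755, and 101 and 163 against 198 and 191, with the genotypes apart.

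**Figure D2:**
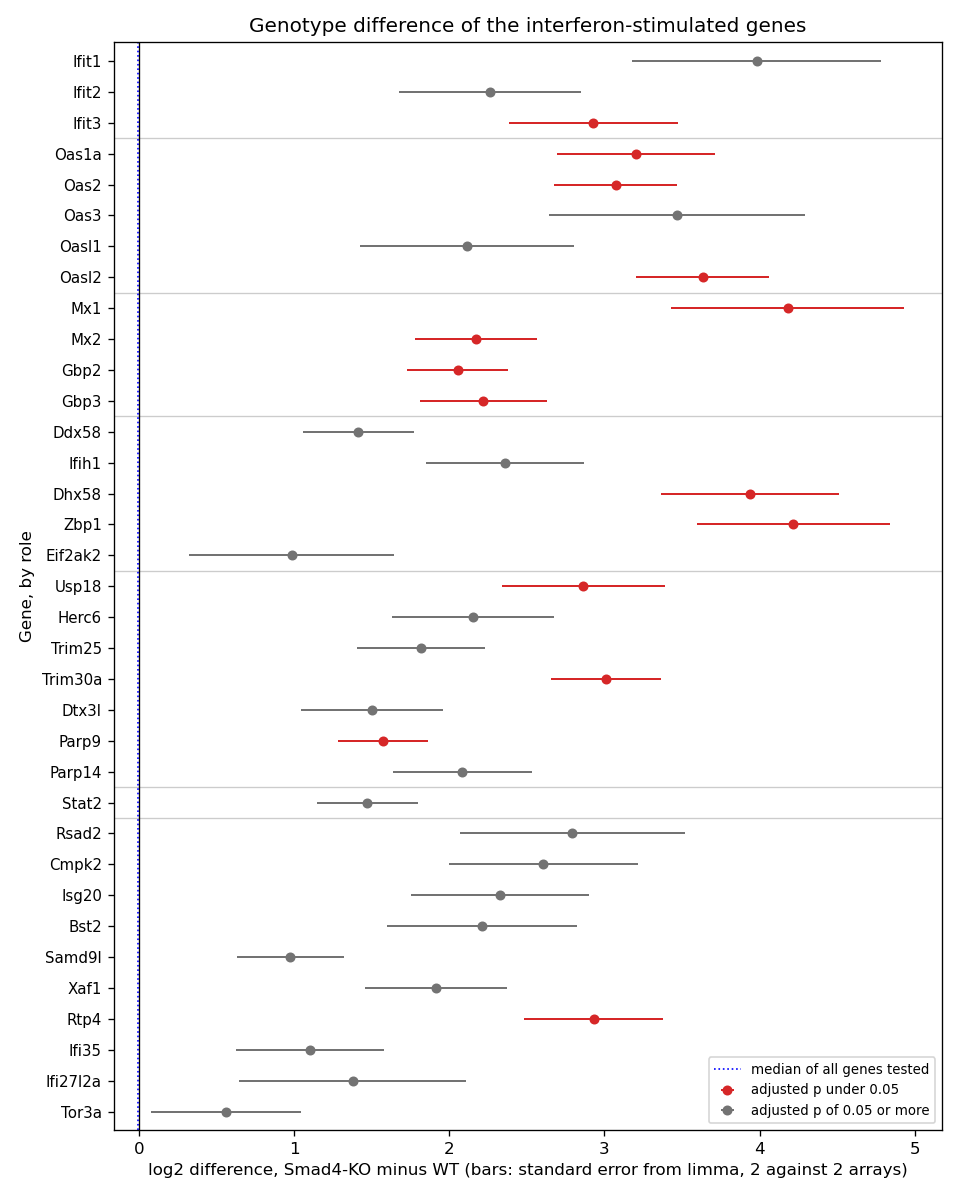
Log2 difference between genotypes (Smad4-KO minus WT) for each gene by role, with bars of 1 standard error from limma over 2 against 2 arrays; red marks an adjusted p under 0.05 and the dotted line is the median of all genes tested. All 35 points lie right of 0, from 0.56 for Tor3a to 4.22 for Zbp1, and 14 are red.

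Probe sets of the same gene mostly pointed one way. Of the 61 probe sets, 59 had a higher mean in Smad4-KO and 55 had both Smad4-KO arrays above both WT arrays. By their brightest probe sets, 25.9% of all genes tested had both Smad4-KO arrays above. The 2 lower ones were the other probe sets of Dhx58. Of the 35 genes, 17 had several probe sets and 18 had 1. When every probe set was tested by itself in limma, over 26209 probe sets, none of the members passed, against 181 genes in all. The lowest adjusted p was shared by Oasl2 and Trim30a (0.0527 each). A probe set was higher at an unadjusted p under 0.05 in 33 of the 35 genes. Over all 26209 probe sets, 3692 had such a p in either direction.

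The 2 Smad4-KO pools did not carry the same amount of these transcripts. Replicate 2 was above replicate 1 for 33 of the 35 genes, with a median log2 difference of 1.23, where the median of all genes tested was -0.05 and 46.5% of them were higher in replicate 2. By at least 1 log2 unit, 22 of the 35 were higher in replicate 2, against 6.59% of all genes, and 1 was lower, against 7.7% of all genes. The 2 WT pools showed no such shift. There the median was -0.10, 2 genes were at least 1 log2 unit higher in replicate 2 (3.6% of all genes) and 4 were lower by as much (7.17%). With 1 pool on each side these are descriptions without a test.

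The gap between the Smad4-KO pools was widest for Ifit1 (log2 difference 2.40), Rsad2 (2.18), Oasl1 (2.07) and Mx1 (2.00). Oas3 (1.84), Zbp1 (1.81), Cmpk2 (1.76) and Ifit2 (1.67) came next. It was narrow for Parp9 (0.12), Mx2 (0.42) and Gbp2 (0.45), and it ran the other way for Stat2 (-0.47) and Eif2ak2 (-1.59). The value for Eif2ak2 rests on its brightest probe set, and both others read higher in Smad4-KO replicate 2, so the 1 gene counted as lower depends on the probe set chosen. Some genes counted as higher also had a dimmer probe set that read lower in Smad4-KO replicate 2. These were Tor3a (198 and 191), Herc6 (314 and 291, and 148 and 60.2) and Cmpk2 (93.6 and 13.9). Of the 61 probe sets, 53 were higher in Smad4-KO replicate 2, as were 46.5% of all genes by their brightest. The size of the Rsad2 gap also varied by probe set. Its others read 737 and 1122, and 1594 and 9228, in Smad4-KO replicates 1 and 2. Of the 22 genes with a gap of at least 1, 7 passed the genotype test and 15 did not. The standard error of the members that did not pass had a median of 0.52, against 0.44 for those that passed and 0.35 for all genes. Both pools were nonetheless above WT: Smad4-KO replicate 1 exceeded both WT arrays for 33 genes and replicate 2 for 34. The share over all genes was not computed for 1 Smad4-KO array alone. For both Smad4-KO arrays together it was 25.9%. Against the mean of the WT arrays the median log2 difference was 1.71 in replicate 1 and 2.97 in replicate 2. At least 1 log2 unit above that mean were 30 genes in replicate 1 (14.7% of all genes) and 34 in replicate 2 (13.7%). These comparisons share the WT arrays.

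**Figure D3:**
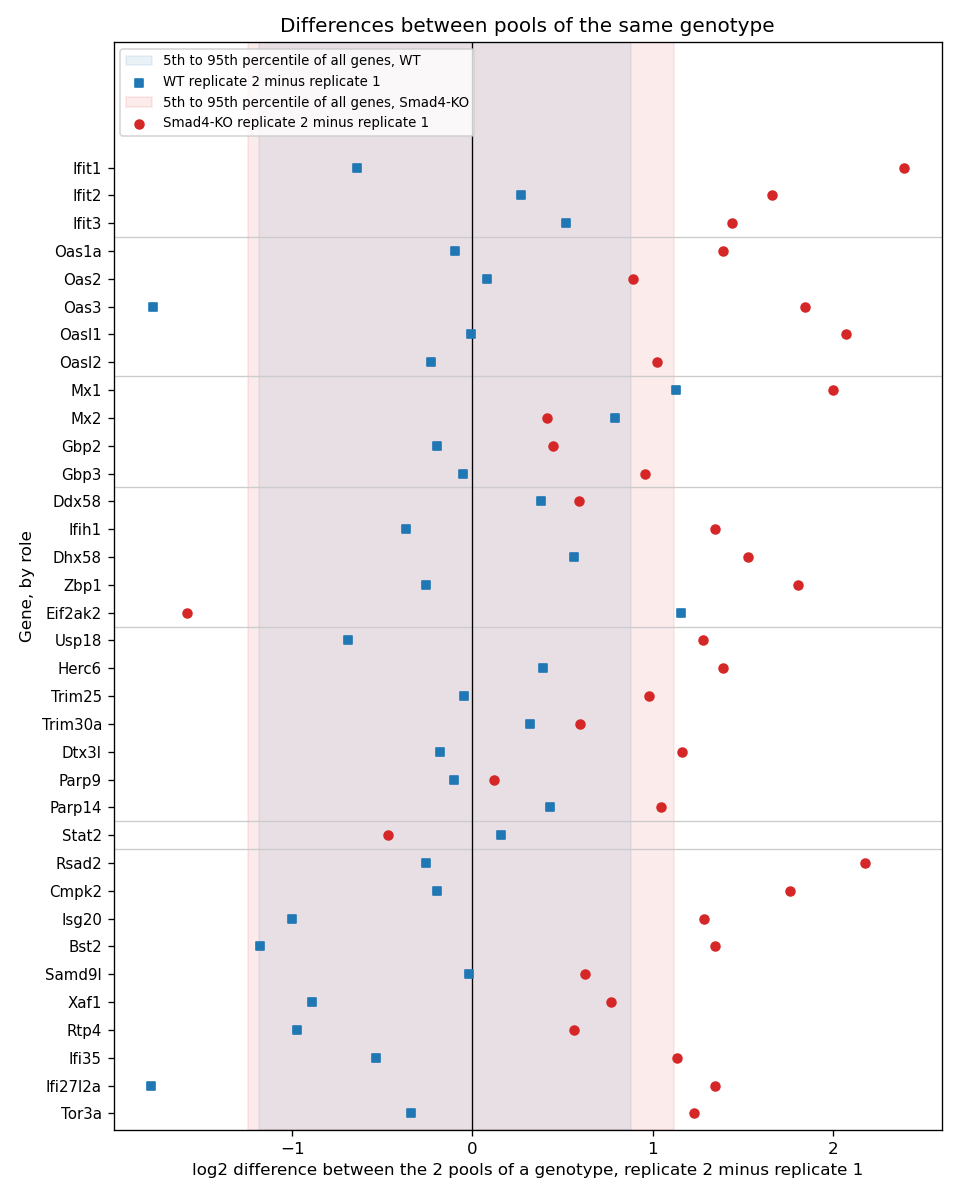
Log2 difference between the 2 pools of a genotype, replicate 2 minus replicate 1, for each gene, with Smad4-KO as red circles, WT as blue squares and shaded bands from the 5th to the 95th percentile of all genes tested. Red circles sit right of 0 for 33 of 35 genes with a median of 1.23, while blue squares scatter around a median of -0.10.

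Other measures also set the Smad4-KO pools apart. For Dap, a spiked control of labelling, the 3' signal exceeded the 5' signal 14.1-fold on Smad4-KO replicate 2 and 3.62-fold on replicate 1, against 10.02 on WT replicate 1 and 2.96 on WT replicate 2. Xist RNA, which coats the inactive X, read 6223 on Smad4-KO replicate 1 and 135 on replicate 2, with 15192 and 90.0 on the WT pools in that order. The WT pools also differed in both measures, with the labelling ratio high on the other replicate, and had a median gap of -0.10 in the interferon-stimulated genes. Macrophage and white blood cell markers were higher in Smad4-KO replicate 2 for 12 of 16 genes, with a median gap of 0.38. All 4 fat cell markers tested were lower there (median -2.93), as were all 7 endothelial markers (median -0.75) and all 3 B cell markers (median -2.25). The fat cell markers were also lower in WT replicate 2, with a median of -1.37. What part any of these had in the gap was not tested. Within the 4 possible pairs of a WT and a Smad4-KO array, the median difference of the 35 genes was 1.66 and 3.15 for arrays of the same number, 2.82 for WT replicate 1 with Smad4-KO replicate 2, and 1.83 for WT replicate 2 with Smad4-KO replicate 1. The last pair and the one before it match on the labelling ratio.

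Upstream genes of the pathway were examined with lists of ligands, receptors and relay proteins. Of 21 interferon genes, 10 had a probe set of their own and only Ifna1 and Ifnz passed the filter on low signal. Neither passed the test, with log2 differences of -0.25 for Ifna1 (adjusted p = 0.898) and 0.66 for Ifnz (adjusted p = 0.505). The Ifna1 probe set is of a type that can match several related genes. Ifnb1, the interferon that most cell types release first, read 52.5 and 73.2 in WT against 68.8 and 18.2 in Smad4-KO. Ifng read 1.55 and 18.4 in WT against 33.0 and 112 in Smad4-KO. At these signals replicate noise is high, and Ifnb1 and Ifng, under the filter, were not tested. Both Smad4-KO arrays lay above both WT arrays for Ifng and Ifnz, as for 25.9% of all genes tested. The genotypes overlapped for Ifnb1 and Ifna1. Whether a ligand differed was not settled.

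None of the 5 tested receptor chains passed in limma, where 4.92% of all genes were called higher and 1.39% lower. Higher at an unadjusted p under 0.05 were 2, against 13.1% of all genes. Ifnar1 read 513 and 492 against 807 and 752 (0.63 ± 0.29, adjusted p = 0.332), and Ifnar2 read 1314 and 988 against 1901 and 2201 (0.84 ± 0.32, adjusted p = 0.234). Il10rb, a chain shared with the receptor of interferon lambda, had the lowest unadjusted p of the receptors and a difference of 1.16 ± 0.33 (adjusted p = 0.122). The receptors as a list had a median of 0.63.

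Among 8 relay proteins and brakes tested, 0 passed in limma, where 4.92% of all genes were called higher and 1.39% lower. Higher at an unadjusted p under 0.05 were 3, against 13.1% of all genes. Irf9, the DNA-binding partner of Stat2, read 421 and 550.1 in WT against 1319 and 1326 in Smad4-KO. The Smad4-KO pools agreed, unlike those of most target genes, and the difference of 1.46 ± 0.31 did not pass (adjusted p = 0.0597). Socs3, an inhibitor of Janus kinases, had a difference of 2.99 ± 0.61 (adjusted p = 0.0540). Of the 8 adaptors and kinases tested that lead to interferon production, 1 rose, where 4.92% of all genes did. Tlr7, the endosomal sensor of single-stranded RNA, read 49.1 and 62.4 against 320.03 and 518 (2.88 ± 0.37, adjusted p = 0.0191). It was at least 6.36-fold higher with signals under 64 raised to 64.

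Of 7 interferon regulatory factors tested, Irf8, a factor of myeloid cells (3.45 ± 0.36, adjusted p = 0.0136), and Irf1 (1.63 ± 0.29, adjusted p = 0.0386) rose. Over all genes tested, 4.92% rose. Irf7, the factor that amplifies type I interferon, read 290 and 298 in WT against 984 and 2772 in Smad4-KO (2.49 ± 0.54, adjusted p = 0.0611). Its pools were 1.49 log2 units apart, as in many of the 35 members, whereas Irf1 read 2409.6 and 2382 in the Smad4-KO pools.

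A further list held 61 interferon-stimulated genes outside the 35, of which 48 could be tested. Of these, 25 rose (4.92% of all genes did) and 0 fell (1.39%), with a median log2 difference of 1.92. Ms4a4c, a membrane protein of white blood cells, read 189 and 208 in WT against 2509 and 10319 in Smad4-KO (4.68 ± 0.68, adjusted p = 0.0233). Ifi204, a cytosolic DNA sensor (3.95 ± 0.52, adjusted p = 0.0195), Ms4a6b (3.67 ± 0.52, adjusted p = 0.0219) and Ifitm6 (3.52 ± 0.61, adjusted p = 0.0355) rose as well. With signals under 64 raised to 64, Ifi204 was at least 12.6-fold and Ifitm6 at least 7.54-fold higher. Ifitm6 passed the filter on low signal only through its Smad4-KO arrays, with 73.7 and 27.8 in WT. Several of these genes are known from white blood cells, whose markers were higher in the same arrays. Of 8 markers of plasmacytoid dendritic cells, the professional makers of type I interferon, 1 rose, where 4.92% of all genes did. It was Pacsin1 (2.19 ± 0.42, adjusted p = 0.0463). The genotypes overlapped for Ccr9, Klk1, Ly6d and Cox6a2, and the mean of Klk1 was lower in Smad4-KO (-0.14). Siglech, the defining surface marker of those cells, read 83.0 and 71.3 in WT against 116 and 103 in Smad4-KO and did not pass (adjusted p = 0.474).

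In the pool comparison the 48 genes had a median gap of 0.54, with 10 at least 1 log2 unit higher in Smad4-KO replicate 2 (6.59% of all genes). The genes named next were chosen after their values were seen. Ifit1bl1, a copy of the Ifit1 family, read 624 and 5169 in the Smad4-KO pools (gap 3.05), and Cxcl10, a chemokine for T cells, read 582 and 3070.1 (gap 2.40). Nearly level across the pools were 4 of the immunity-related GTPases, a family that attacks vacuoles of intracellular pathogens. Iigp1 read 8105 and 8693, Igtp 4404 and 3902, Irgm1 1809 and 1833, and Irgm2 2242 and 2084. Ifi47, another member of the family, was not level, at 3228 and 5135 (gap 0.67). The 4 level ones rose between genotypes: Iigp1 by 2.55 ± 0.29 (adjusted p = 0.0161), Igtp by 2.50 ± 0.30 (adjusted p = 0.0167), Irgm1 by 2.21 ± 0.29 (adjusted p = 0.0194) and Irgm2 by 2.20 ± 0.35 (adjusted p = 0.0295). Level pools were not particular to this family. Psmb9, a subunit of the immunoproteasome (1304 and 1321), Sp100 (742 and 756) and Trim34a (2266 and 2337) were likewise level in the Smad4-KO pools.

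**Figure D4:**
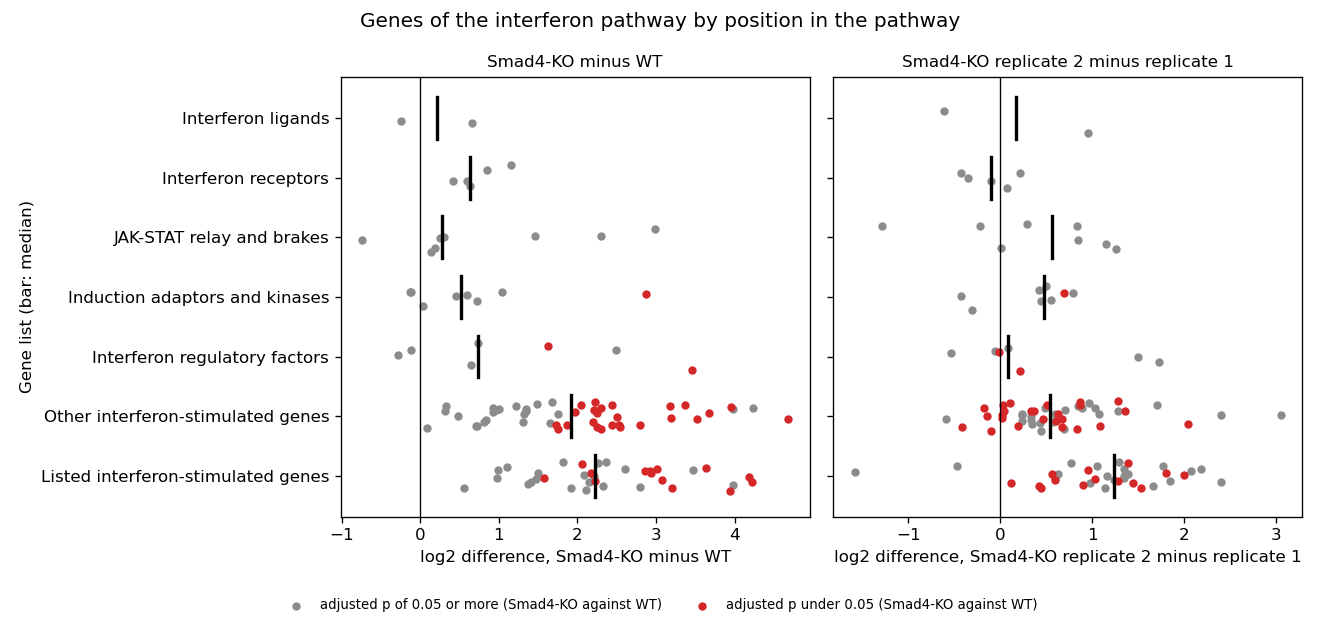
Log2 differences of genes by position in the interferon pathway, between genotypes on the left and between the Smad4-KO pools on the right; each point is a gene, bars are list medians, and red marks an adjusted p under 0.05 for Smad4-KO against WT. The genotype medians run from 0.21 for the ligands to 2.22 for the 35 listed genes, and the pool median is 0.54 for the second list of stimulated genes against 1.23 for the 35.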

How the data were processed

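The deposited table holds probe set intensity on a linear scale for 45101 probe sets on 4 arrays. The submitters' processing notes name RMA and Affymetrix Expression Console without a version. The values are not on a log scale, and the mean after trimming 2% at each end is 500 on every array, the form of MAS5 scaling by 1 factor. The sources used here give no detection calls and no genome build. Probe sets were named from GEO's platform annotation: outside 64 controls, 34945 have 1 symbol, and 932 with several and 9160 with none were left out. All 35 genes matched the RefSeq table (GRCm38.p6, used for names, neighbours and promoters) by gene identifier. After log2 conversion the brightest probe set stood for its gene, and genes under the 25th percentile of mean signal (50.01) were left out. Genotypes were compared with limma 3.58.1 (R 4.3.3), lmFit and eBayes, with genotype as the only term, a two-sided test and Benjamini-Hochberg adjustment over 13645 genes. The fit was tested on simulated data with known changes. A fold written "at least" has signals under 64 raised to 64. The p-values measure the spread of pools, and their precision is limited by how few arrays there are. Members, gene lists, alternatives and naming rule were all chosen with earlier results of these data known. The rule names all listed genes, up to 4 called genes of each pathway list or else the 2 of lowest p, and a fixed set of pathway genes. The labels do not say that the replicate numbers pair the samples, and the correlation of same-numbered deviations over all genes was -0.01, so no block was used, although Xist and fat cell markers were higher on replicate 1 in both genotypes. Tables and figures used matplotlib 3.10.9, pandas 2.3.3 and numpy 2.4.6 in Python 3.11.15.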

Additional observations from a re-analysis of the deposited data

How the results depend on the processing

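The median log2 difference of the listed genes (2.22) stayed positive in every alternative run and ranged from 1.71 to 2.97 over the settings that leave out 1 array. The number of listed genes past the threshold was 14, and over those settings it ranged from 0 to 24, while the count over all genes, 861, ranged from 0 to 808. The replicate block raised the counts to 27 and 1321. Keeping genes of low signal gave 0 and 0 (2788 genes at an unadjusted p under 0.05, 29 of them listed), the mean of probe sets 7 and 518, and every probe set by itself 0 listed genes and 181 genes in all. A block for arrays that match on the labelling ratio, added after seeing the data, gave 0 and 0, with 2658 genes at an unadjusted p under 0.05, 34 of them listed. The causes were not tested. Median centring lowered the share of called genes that were higher from 78.0% to 71.0% and moved the median of all genes to -0.16, and a filter at the 50th percentile left 27 listed genes and a share of 68.2%. For single genes, 408 of 541 values under alternatives kept direction and side of the threshold, 91 lost the call, 40 gained it and 2 reversed: Tor3a, whose range over the settings that leave out 1 array was -0.054 (without Smad4-KO replicate 2) to 1.18, and the dimmer Dhx58 probe set (-0.56). Under 7 settings added after seeing the data, 17 to 22 listed genes were at least 1 log2 unit higher in Smad4-KO replicate 2 (22 as reported). The 2 listed genes higher in WT replicate 2 became 0 with quantile normalization, cyclic loess, median centring and the 50th percentile filter, and 1 with the floor of 64. The share of listed promoters with an ISRE core (53.8%) was 46.2% with the longer motif.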
